A study of Mus musculus with 3 samples.

Results

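The Hox genes encode homeodomain transcription factors that sit in 4 clusters of the mouse genome. They were followed here as the 44 probes, for 39 genes, whose gene name on the array was Hoxa, Hoxb, Hoxc or Hoxd with a number, out of 55681 non-control probes. The HoxA cluster had 14 probes for 11 genes (chromosome 6), HoxB had 11 probes for 10 genes (chromosome 11), HoxC had 9 probes for 9 genes (chromosome 15) and HoxD had 10 probes for 9 genes (chromosome 2). The members were matched by gene name, a rule set with earlier results of these data known. A table of RefSeq accessions gave the same symbol for 43 of the 44 probes and held no entry for the other one.

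Cells of the cerebrum were taken at embryonic day 18 from mice of the C57BL6/J strain, cultured in serum-free neurobasal medium with B27, and exposed to a drug or its solvent for 24 h from day 10 in vitro. One culture received 1 mM valproate, an antiepileptic drug that inhibits class I histone deacetylases, and another 100 µM lamotrigine, which is also antiepileptic and acts on voltage-gated sodium channels. The control received the solvent, 0.1% DMSO, which the drug-treated cultures contained too. Each treatment had 1 array, so no difference below has a replicate check, no test between treatments was made, and a difference between treatments cannot be told apart from a difference between cultures. The labels give no sex or number of the embryos, and state that the lamotrigine array was not part of the study of histone deacetylase inhibition.

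Hox genes are grouped by cluster and by paralogue number, and genes with the same number in different clusters are the closest relatives. In the embryo, low-numbered genes are switched on earlier and farther forward, up to the hindbrain, and high-numbered genes later and farther back, an order that follows their order along the chromosome. The forebrain lies in front of the Hox domains, and in forebrain cells the clusters are typically held silent by Polycomb complexes, which place and read the mark H3K27me3. Hox proteins bind DNA together with TALE homeodomain cofactors of the Pbx, Meis and Pknox families, and retinoic acid is a classical inducer of the low-numbered genes.

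Some of the probes are shown first, because what a probe reads bears on what a signal at the detection limit can be. Probes of the 3' end of a transcript often hold AATAAA, the polyadenylation signal. Read on the strand of the probe, these letters occurred in 7 of 44 Hox probes (15.9%) and in 10.1% of all non-control probes. Hoxb13 and Hoxc4, each detected with valproate, were among them, and 30 bases of each probe are given with AATAAA in capitals.
Hoxb13: gagctgattgtgAATAAAttcggaagacga
Hoxc4: cccgtgatcaatAATAAAccagtggctgtg
On mm9 these probes lie at chr11:96057854-96057913 and chr15:102867213-102867272, both on the plus strand. Whether the transcripts end at these sites was not tested.

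The question put to each array was which Hox probes rose above background. A probe counted as detected where most of its spots carried the scanner software's mark for a signal well above background. With valproate 5 of 44 Hox probes were detected (11.4%), among them those of Hoxa7, Hoxb3, Hoxb13 and Hoxc4. With DMSO 1 was detected (2.27%), for Hoxa9, and with lamotrigine 1 (2.27%), for Hoxa7. Of all probes, 51.7% were detected with valproate, 48.5% with DMSO and 50.6% with lamotrigine. In all, 33 of the 39 genes were detected on no array, and no Hox probe (0) was detected on all 3.

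Signals were scaled so that the 75th percentile of each array equals 100, and most Hox probes lay far below it. The 75th percentile was an unscaled signal of 478 with valproate, 372 with DMSO and 388 with lamotrigine. The lowest scaled signal among detected probes, called the floor here, was 3.88, 5.29 and 4.63, while in unscaled signal it was 18.6, 19.7 and 18.0. On the 62 spots of the Hox probes, the software had replaced a signal too low to be measured by a surrogate value on 43 with valproate, 47 with DMSO and 44 with lamotrigine. The median Hox probe had a scaled signal of 0.943, 1.30 and 1.17, below the floor of its array.

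**Figure D1:**
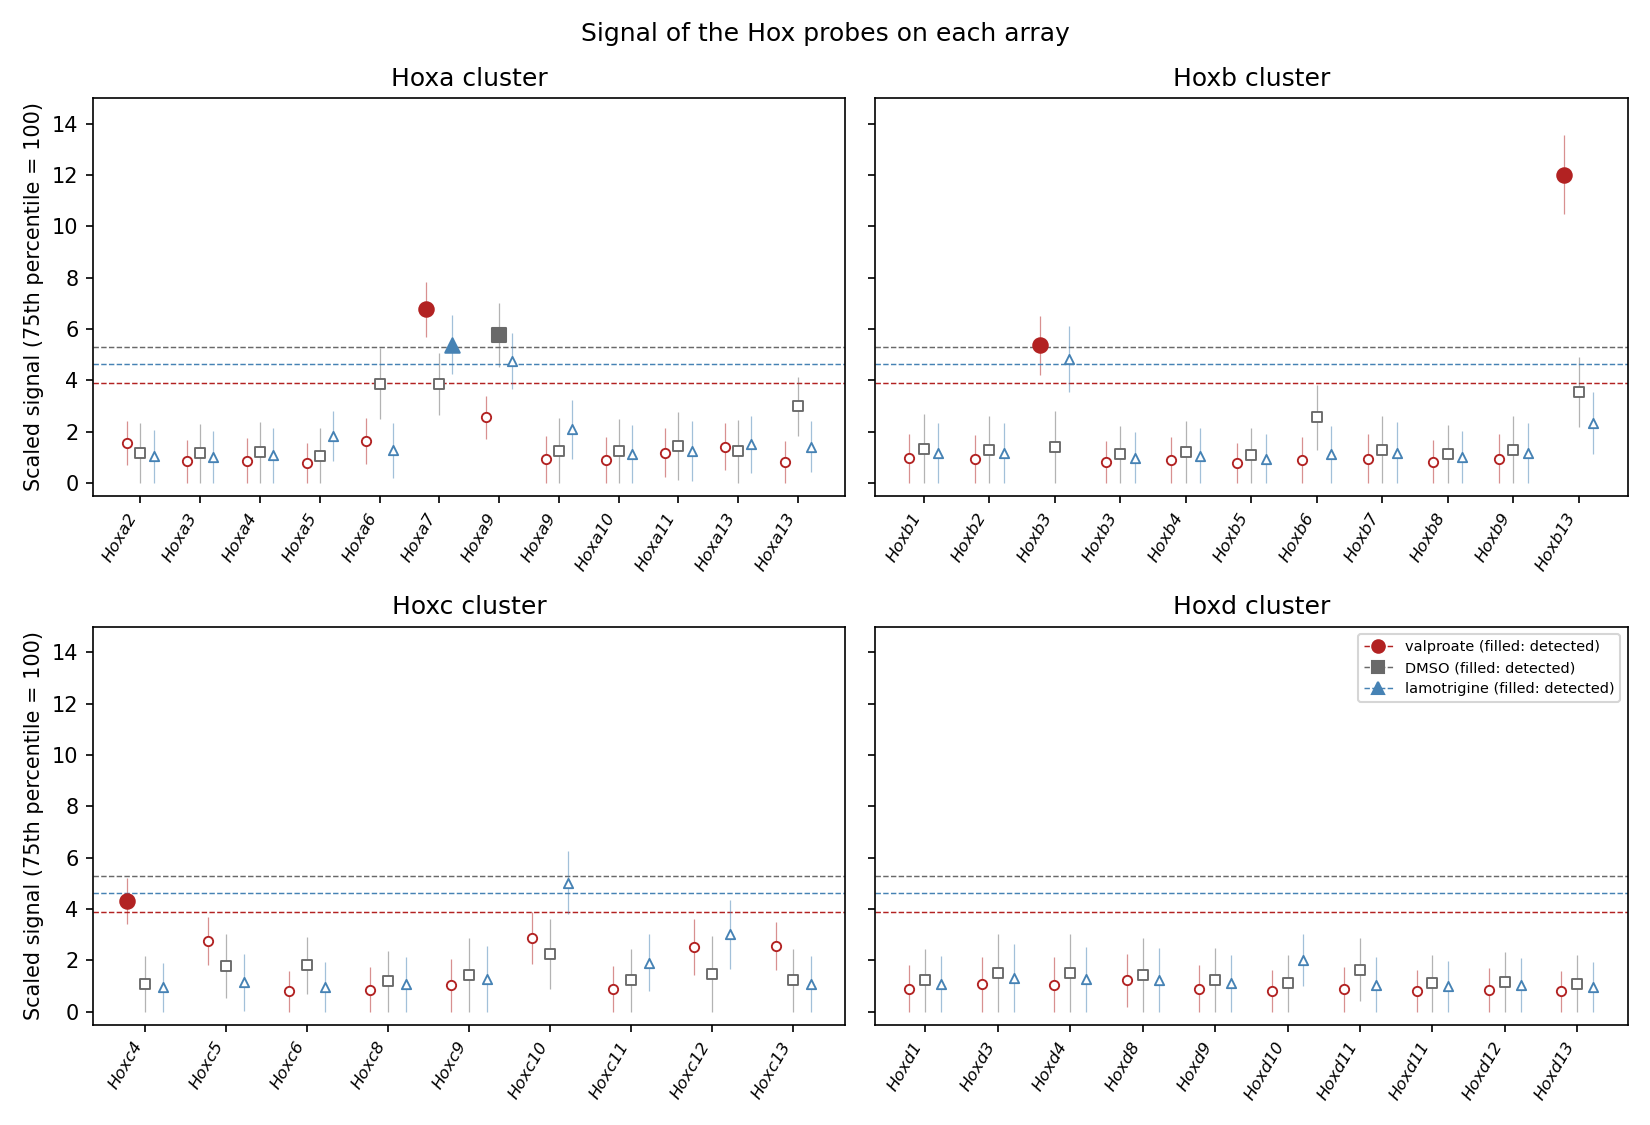
Scaled signal (vertical axis, linear, 75th percentile of the array = 100) of each Hox probe reported here, in order of paralogue number within each cluster, on the valproate, DMSO and lamotrigine arrays. Filled symbols are detected, vertical bars are the error that the scanner software gives for the spots, and dashed lines are the floors of 3.88, 5.29 and 4.63. Most probes lie below 2 on every array, and Hoxb13 with valproate stands at 12.005.

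By cluster, the detected genes with valproate were 2 of 10 in HoxB, 1 of 9 in HoxC and 0 of 9 in HoxD. The gene detected with DMSO and the gene detected with lamotrigine were both in HoxA. HoxD held the dimmest set: its 10 probes ranged from 0.800 to 1.22 with valproate, from 1.10 to 1.64 with DMSO and from 0.971 to 2.00 with lamotrigine. Hoxd1, Hoxd3, Hoxd4, Hoxd8, Hoxd9, Hoxd10, Hoxd11, Hoxd12 and Hoxd13 were thus below the floor of every array.

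The undetected genes of HoxA included Hoxa2, Hoxa3, Hoxa4, Hoxa5, Hoxa6, Hoxa10, Hoxa11 and Hoxa13. In HoxB they were Hoxb1, Hoxb2, Hoxb4, Hoxb5, Hoxb6, Hoxb7, Hoxb8 and Hoxb9, and in HoxC they were Hoxc5, Hoxc6, Hoxc8, Hoxc9, Hoxc10, Hoxc11, Hoxc12 and Hoxc13. The highest signal without detection belonged to Hoxc10, a gene of the lumbar region, at 5.03 with lamotrigine. It lay above the floor of 4.63 there without the mark. Hoxa11 and Hoxb1 were each printed 10 times. Not one spot of either (0 of 10 on each array) was well above background, with unscaled signals of 4.09 to 11.6 for Hoxa11 and 4.22 to 5.08 for Hoxb1 with valproate.

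By paralogue number, Hoxb3, Hoxc4, Hoxa7 and Hoxb13 came from different groups, and no group had a pair of genes detected with valproate. Groups 1 to 4, which pattern the hindbrain and neck, had 3 of 14 probes detected with valproate, 0 with DMSO and 0 with lamotrigine. Groups 5 to 8, which pattern the trunk, had 1 of 11 with valproate, 0 with DMSO and 1 with lamotrigine. Groups 9 to 13, which pattern the lumbar region, limbs and tail, had 1 of 19 with valproate, 1 with DMSO and 0 with lamotrigine. Within HoxA, Hoxa7 stood near the middle of the cluster, and its neighbour Hoxa6 was not detected.

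Hoxb13, which marks the tail end of the embryo and the prostate and colon of the adult, had the highest signal of any Hox probe. Its scaled signal was 12.005 ± 1.54 with valproate, 3.54 ± 1.37 with DMSO and 2.35 ± 1.20 with lamotrigine (software error of 1 spot). Only the valproate value was detected, and the other arrays lay below their floors. Set against those floors, it was at least 2.27-fold higher with valproate than with DMSO and at least 2.59-fold higher than with lamotrigine. With normexp background correction and an offset of 50 these bounds were 0.24 and 0.38 on the log2 scale, and no Hox probe (0) was at least 2-fold higher in either comparison. In unscaled signal it had 57.4, 13.2 and 9.11. Its probe lies at one end of HoxB, which spans 171 kb between its outermost probes.

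Hoxa7, a trunk gene, was the only Hox gene detected on 2 arrays. It had 6.77 ± 1.07 with valproate, 3.86 ± 1.20 with DMSO and 5.39 ± 1.14 with lamotrigine. The drug-treated arrays had the detected values, and they differed by 0.33 on the log2 scale, less than the software error of 0.38 for that difference. Against the floor of the DMSO array the valproate value was at least 1.28-fold higher and the lamotrigine value at least 1.02-fold higher.

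Hoxb3, a hindbrain gene, had 5.36 ± 1.14 with valproate, 1.39 ± 1.40 with DMSO and 4.82 ± 1.29 with lamotrigine at the detected probe. The drug-treated arrays were close to each other, and the valproate value was at least 1.01-fold higher than DMSO. The undetected lamotrigine signal lay above the floor of 4.63, so the difference between the drugs, 1.11-fold, is a plain one. On the log2 scale that difference was 0.15, smaller than its software error of 0.49. Its other probe stayed at 0.810, 1.11 and 0.985 and was not detected. Cross-reaction of the detected probe with transcripts of other homeobox genes was not tested.

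Hoxc4, a gene of the neck and upper spinal cord, had 4.31 ± 0.904 with valproate, 1.08 ± 1.09 with DMSO and 0.950 ± 0.954 with lamotrigine. The valproate value was detected yet lay below the floors of the other arrays, so the bound on its difference is 0 in both comparisons. Hoxc4 is not counted when the highest of the 3 floors is asked of every array, which leaves 4 Hox probes with valproate, 1 with DMSO and 1 with lamotrigine.

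Hoxa9, a gene of the thoracic and lumbar region and of blood progenitors, went the other way. It had 2.55 ± 0.841 with valproate, 5.77 ± 1.24 with DMSO, the only detected value, and 4.75 ± 1.08 with lamotrigine. It was at least 1.48-fold lower with valproate than with DMSO. With lamotrigine the undetected signal lay above the floor of 4.63, so the difference from DMSO, 1.21-fold lower, is a plain one. On the log2 scale that difference was -0.28, smaller in size than its software error of 0.45. Its other probe was undetected at 0.919, 1.26 and 2.09. Over all 5 genes with a pair of probes, no pair was detected at both probes (0 of 5), 3 were detected at 1 probe (Hoxa9 and Hoxb3 among them) and 2 at neither (Hoxa13 and Hoxd11).

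Valproate against DMSO was the comparison the study made, on the inhibition of histone deacetylases. Of the 43 Hox probes not detected with DMSO, 5 (11.6%) were detected with valproate, against 7.87% of all 28679 probes not detected with DMSO. In the opposite direction 1 of 39 (2.56%) was detected with DMSO and not with valproate, against 1.72% of all such probes. Hoxb13 was the only Hox probe at least 2-fold higher, 1 of the 6 detected on either array, against 2.14% of all such probes, and 0 of 6 were at least 2-fold lower, against 1.64%. Among the 2257 probes detected with valproate and not with DMSO, 6.82% had a higher scaled signal with valproate than Hoxb13, and the median of these probes was 6.02. Hoxa7 lay just above that median, and Hoxb3 and Hoxc4 below it. The share of Hox probes that became detected rests on 5 probes and the share at least 2-fold higher on 1, and no preference for Hox genes is read from them.

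Lamotrigine was set against DMSO on the same terms, with the same control array. Of the 43 Hox probes not detected with DMSO, 1 (2.33%) was detected with lamotrigine, Hoxa7, against 5.74% of all such probes. In the opposite direction, Hoxa9 was 1 of 43 (2.33%), against 1.82%. No Hox probe was at least 2-fold higher (0 of 2, against 0.433% of all probes detected on either array) or lower (0 of 2, against 0.175%).

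Valproate against lamotrigine compared the drugs directly. Of the 43 Hox probes not detected with lamotrigine, 4 (9.30%) were detected with valproate, among them Hoxb3, Hoxb13 and Hoxc4, against 5.75% of all such probes, and 0 of 39 showed the reverse, against 3.48%. Hoxb13 was again the only 1 of 5 at least 2-fold higher, against 2.08%, and 0 of 5 were at least 2-fold lower, against 2.16%.

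Without regard to detection, most Hox probes had a lower scaled value with valproate than with DMSO, 33 of 44, with a median log2 difference of -0.45. The same median was -0.46 over all 26423 probes undetected on both arrays. Before scaling, the Hox median was -0.09 and that of the undetected probes -0.10. These are mostly surrogate values divided by the 75th percentile of the array, and they are no measure of Hox transcripts. For lamotrigine against DMSO the medians were -0.17 for Hox probes and -0.17 for undetected probes.

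The Hox probes were then set beside other gene families on the same arrays. Homeobox genes of the same ANTP class outside the clusters (71 probes, such as the Dlx, Emx and Nkx genes) were detected for 52.1% of probes with valproate, 39.4% with DMSO and 47.9% with lamotrigine. Of their 43 probes not detected with DMSO, 9 (20.9%) were detected with valproate and 6 (14.0%) with lamotrigine. Olfactory receptors, a large family expressed in the nose and chosen here as a silent reference after the data were seen, were detected for 3.59%, 2.90% and 2.99% of 1171 probes. Of their 1137 probes not detected with DMSO, 0.967% were detected with valproate. On the DMSO and lamotrigine arrays the Hox share of 2.27% lay near that of the olfactory receptors, and on the valproate array it lay between the olfactory receptors and the other homeobox genes.

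**Figure D2:**
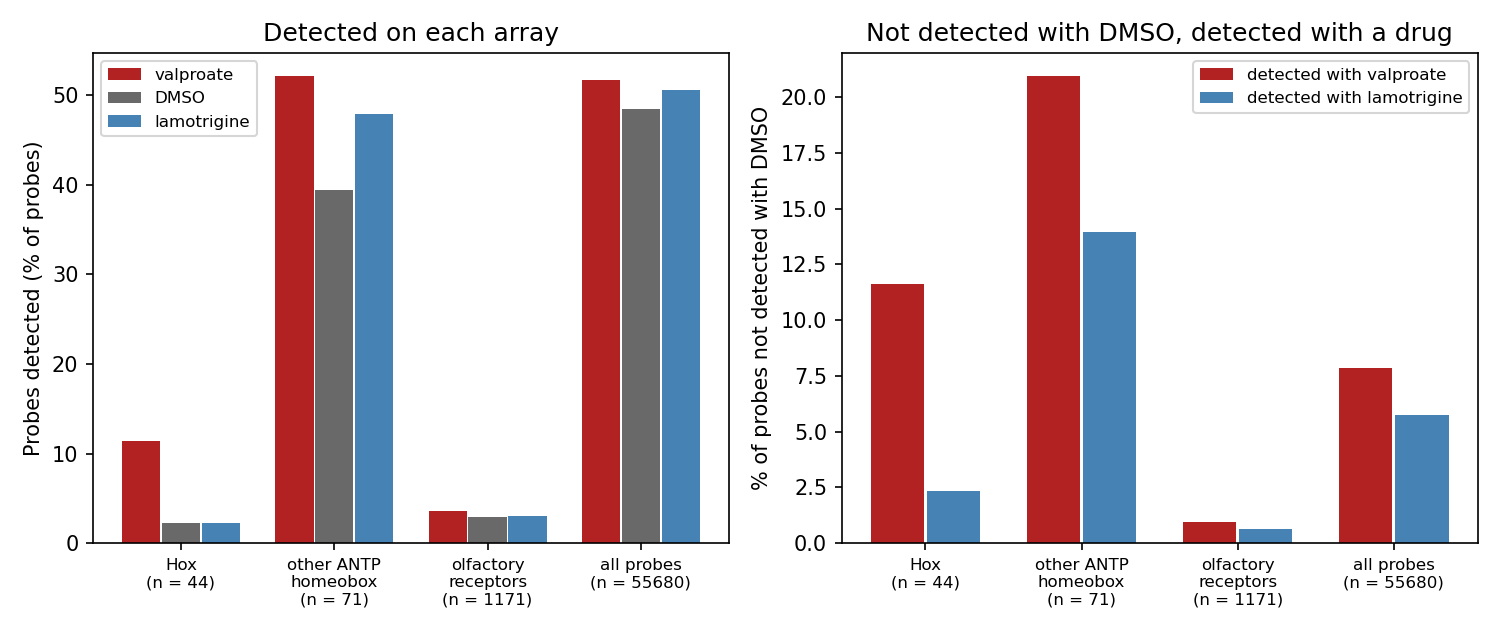
Left, percent of probes detected on each array for Hox genes, other ANTP-class homeobox genes, olfactory receptors and all probes (bars start at 0, with the number of probes below). Right, percent of the probes not detected with DMSO that were detected with valproate or lamotrigine. The Hox bars are 11.4%, 2.27% and 2.27% on the left and 11.6% and 2.33% on the right.

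Probes beside the clusters were read on the same arrays. Within 500 kb of the clusters on mm9, 97 probes for other transcripts, leaving out those for long intergenic RNA, were detected for 60.8% of probes with valproate, 61.9% with DMSO and 62.9% with lamotrigine, and 57 were detected on all 3 arrays. By cluster, 2 of 7 such probes were detected with DMSO beside HoxA, 25 of 43 beside HoxB, 30 of 42 beside HoxC and 3 of 5 beside HoxD. Of 91 probes for long intergenic RNA beside the clusters, 33.0% were detected with DMSO. Inside the clusters, between the outermost Hox probes, 17 probes for transcripts other than Hox genes and long intergenic RNA were detected for 3 probes with valproate, 2 with DMSO and 2 with lamotrigine. Hibadh, a mitochondrial enzyme gene beside HoxA, had 997, 1092 and 1024 with valproate, DMSO and lamotrigine. Cbx1, which encodes a heterochromatin protein and lies beside HoxB, had 392, 377 and 419. Copz1, a coat protein gene beside HoxC, had 2626, 2805 and 2586, and Mtx2, a mitochondrial import gene beside HoxD, had 510, 570 and 458. These genes were picked after their values were seen, and levels of different probes are not compared.

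**Figure D3:**
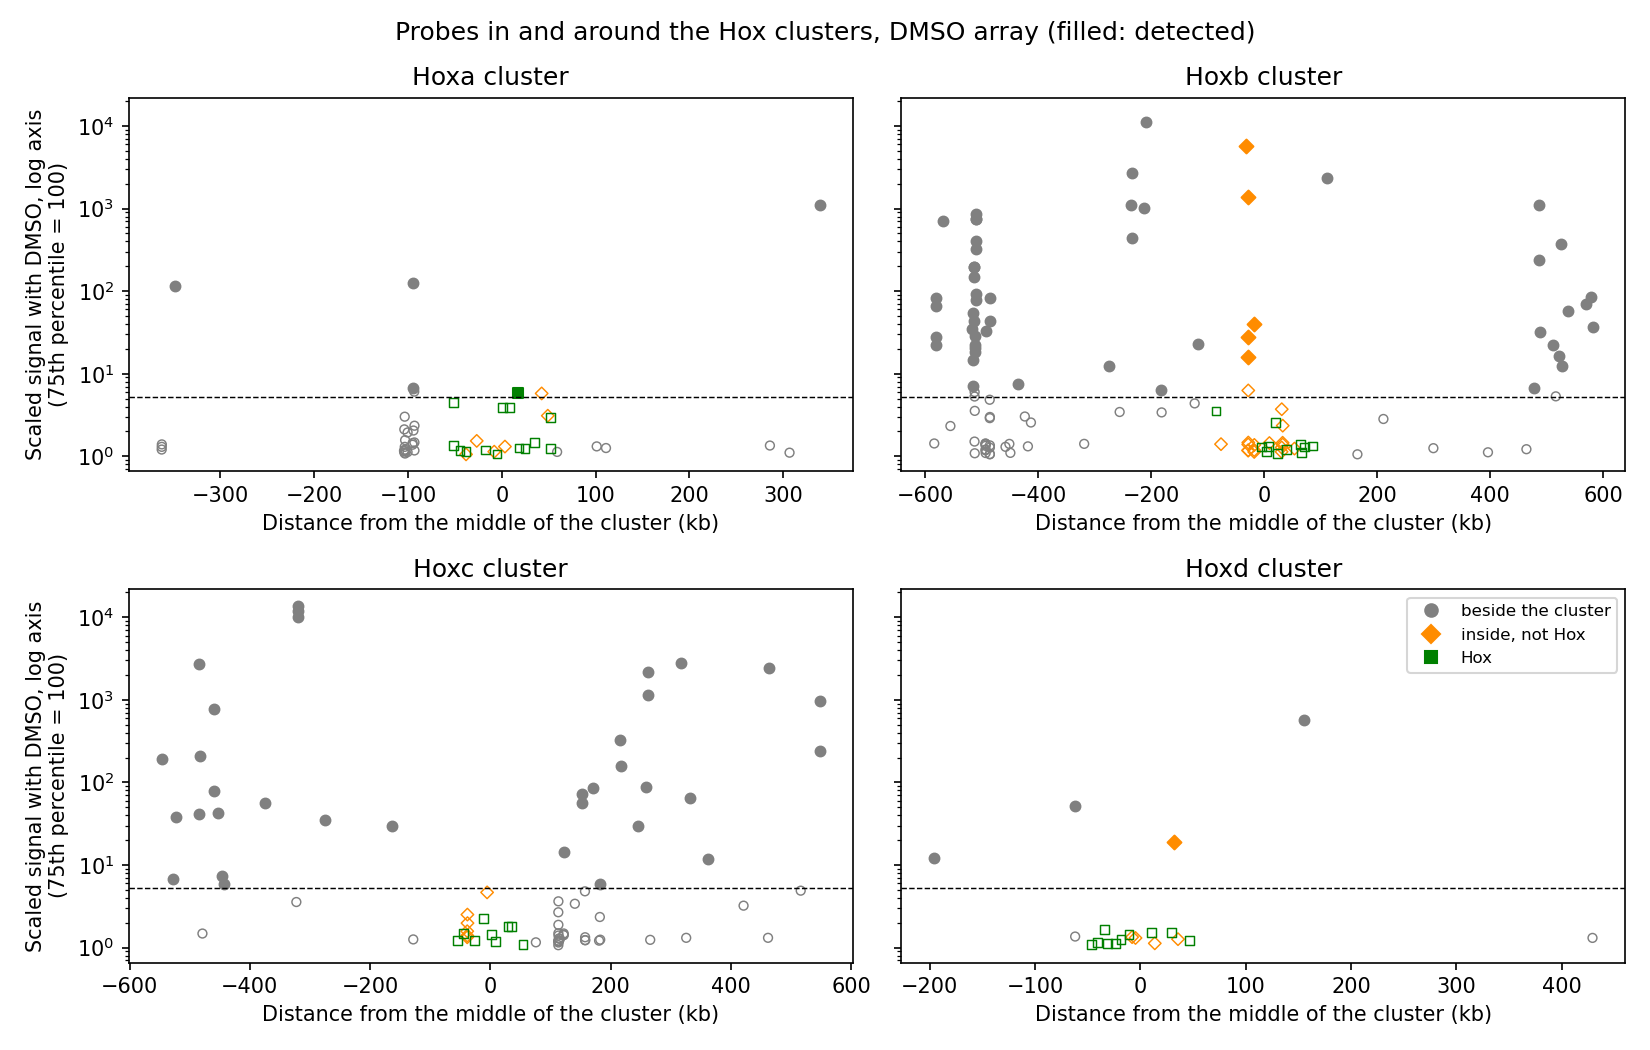
Scaled signal with DMSO (logarithmic vertical axis, 75th percentile = 100) against distance in kb from the middle of each cluster, for Hox probes, other probes inside the clusters and probes beside them, long intergenic RNA probes included. Filled symbols are detected and the dashed line is the floor of 5.29. Hox probes lie below the floor apart from the detected Hoxa9 probe at 5.77, while many probes on both sides of HoxB and HoxC lie far above it.

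Of the genes fixed as neighbours of the clusters, 23 of 26 were on the array and 21 could be compared between valproate and DMSO. None was at least 2-fold apart (0 higher and 0 lower), against 2.27% higher and 1.69% lower of all 20848 genes compared, and their median log2 difference was -0.13 against -0.08 for all genes. The farthest from 0 were Calcoco2 (-0.70, a bound from a probe detected with DMSO only), Cbx5 (-0.62, 214 against 330), Evx2 (-0.36) and Skap2 (0.31). The other Calcoco2 probe was detected with lamotrigine only, at 6.29. Evx1 and Evx2 are homeobox genes at the ends of HoxA and HoxD, and they are relatives of the Hox genes themselves. Evx1 was undetected at 0.919, 1.26 and 1.11. Evx2 had 1 probe detected on all 3 arrays, at 40.6 with valproate, 52.0 with DMSO and 49.8 with lamotrigine, and another at 0.981, 1.36 and 1.23, so its probes disagreed.

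Noncoding transcripts of the clusters were mostly undetected too. HOTAIR, a long noncoding RNA of HoxC, had 5 probes and none was detected on any array (0 of 5), with scaled signals of 0.784 to 2.51. Hoxaas3 in HoxA and Hoxd3os1 in HoxD were undetected. Hoxa11os, antisense to Hoxa11, was detected with valproate only, at 5.36, while the DMSO array read 5.77 without the mark and the lamotrigine array 3.15, so no difference between valproate and DMSO can be given. Among 22 probes for long intergenic RNA inside the clusters, 4 were detected with valproate, 4 with DMSO and 5 with lamotrigine. A probe with no gene name inside HoxB stood apart at 5296, 5786 and 4814, and a probe for a transcript with no gene name inside HoxD had 17.0, 19.0 and 19.9. What these probes read was not tested.

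The cofactors of Hox proteins were detected throughout. For scale, 20545 of all 34797 genes were detected with valproate, 19544 with DMSO and 20131 with lamotrigine. All 9 TALE genes were detected on every array, none at least 2-fold apart between valproate and DMSO (0 higher and 0 lower), with a median log2 difference of -0.01. Pbx2 was the farthest from 0, at -0.38. Meis2 was at -0.18 and Meis1 at 0.16, with scaled signals of 532 with valproate and 476 with DMSO for Meis1.

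The Polycomb genes, which encode the complexes that silence Hox clusters, were all detected on all 3 arrays (27 of 27). None was at least 2-fold apart between valproate and DMSO, with a median of -0.11 and 20 of 27 below 0. Of all 20848 genes compared, 12430 were below 0. Ring1, a ubiquitin ligase subunit (-0.50), Cbx8, a reader of H3K27me3 (-0.47), Phf1 (-0.47) and Mtf2 (-0.37), accessory subunits of the methyltransferase complex, were farthest from 0. Of the Trithorax genes and H3K27 demethylases, which oppose Polycomb, 12 of 18 were found on the array by name and 11 were compared. None was at least 2-fold apart (0 higher and 0 lower), with a median of -0.13. Mll1 was undetected at 3.78 with valproate, 3.03 with DMSO and 5.25 with lamotrigine, and was not compared. The histone methyltransferase Ash1l (-0.67, 44.0 against 70.2) and the complex subunit Rbbp5 (0.46) were farthest from 0, followed by Mll2 (-0.46) and Wbp7 (-0.44), methyltransferases of the same group. The medians of these lists lay close to that of all genes, -0.08.

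The retinoic acid pathway and the Cdx genes, which act upstream of Hox genes in the embryo, included 2 of 17 compared genes at least 2-fold higher with valproate and 0 lower, against 2.27% higher and 1.69% lower of all genes compared, with a median of -0.01. Cyp26a1, which degrades retinoic acid and is itself induced by it, had 29.1 with valproate, 9.47 with DMSO and 6.05, undetected, with lamotrigine, a log2 difference of 1.62 between valproate and DMSO. Crabp1, a cytoplasmic carrier of retinoic acid, had 134, 59.5 and 73.4, a difference of 1.17. The receptor gene Rxra was detected with both drugs and not with DMSO (bound of 0.80 for valproate), and Dhrs3, a retinaldehyde reductase, was at -0.58. Of the 17 compared, 8 were above 0 and 9 below, with Rarb (-0.29) and Stra6 (-0.34) among those below. Whether retinoic acid signalling differed was not tested. Cdx1, Cdx2 and Cdx4 were detected on no array.

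Among the 33 compared homeobox genes of the ANTP class outside the clusters, 1 was at least 2-fold higher with valproate and 1 lower, near the 2.27% and 1.69% of all genes compared, with a median of 0. Hmx1, of the developing eye and ear, had 90.5 against 45.2 (1.00), and Barx2 had 9.41 against 20.1 (-1.10). Dlx4 was detected with valproate only (bound of 0.97), and Dlx6, a forebrain interneuron gene, was at 0.84. The other Dlx genes did not follow, with Dlx1 at -0.51, Dlx3 at -0.22, Dlx5 at -0.15 and Dlx2 at 0.02. Nanog was at -0.80 and Vax2 at 0.71. Of the 33 compared, 15 were above 0 and 16 below.

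**Figure D4:**
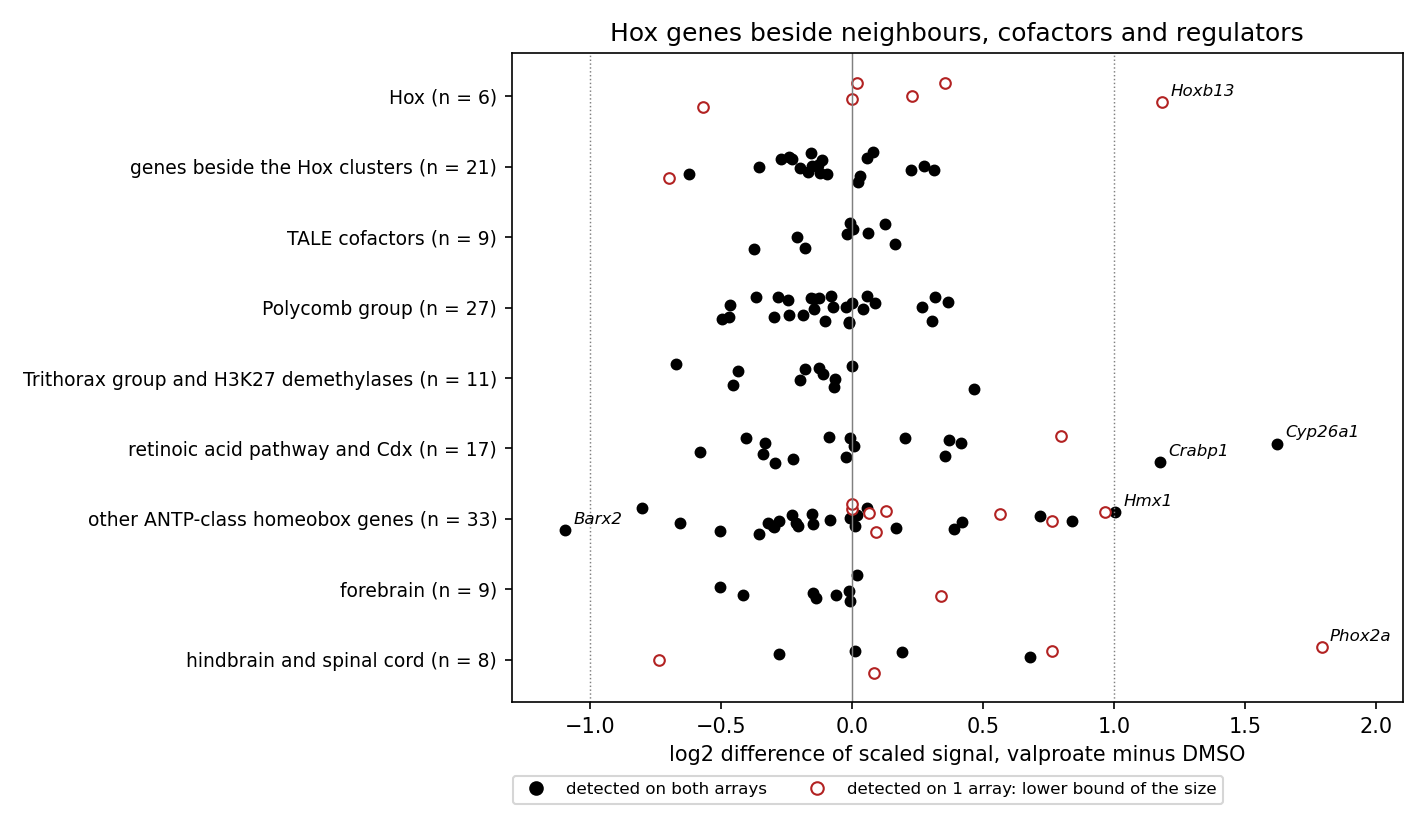
Log2 difference of scaled signal between valproate and DMSO (horizontal axis) for each compared gene of the lists named on the left, with dotted lines at -1 and 1. Filled points were detected on both arrays, and open points on 1 array. The value of an open point is a bound, or the plain difference where the undetected signal lay above its floor. Hoxb13, Cyp26a1, Crabp1, Hmx1 and Phox2a lie at or beyond 1 and Barx2 beyond -1.

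The regional identity of the cultures was checked with markers. Forebrain markers were detected on every array for 8 of 9 genes, with Otx1 missing from the DMSO array only. Of 16 markers of hindbrain and spinal cord, 7 were detected with valproate, 5 with DMSO and 6 with lamotrigine. Of all 34797 genes, 20545, 19544 and 20131 were detected on these arrays. Of the 8 compared, 1 was at least 2-fold higher with valproate, against 2.27% of all genes compared. That gene was Phox2a, a transcription factor of noradrenergic and cranial motor neurons, at 18.3 with valproate and undetected at 1.10 with DMSO and 0.969 with lamotrigine, a bound of 1.79. Mnx1, Isl1 and Tlx3, transcription factors of spinal motor or dorsal horn neurons, were undetected on every array. Other members of the list were detected near the floor. Lbx1 was detected on all 3 arrays (4.93 with valproate, 5.99 with DMSO and 4.91 with lamotrigine). Lhx3 was detected with DMSO (6.76) and lamotrigine (8.71), and Lhx4 with valproate only (5.60). The hindbrain gene Egr2 (35.5 with valproate, 31.2 with DMSO and 27.3 with lamotrigine) was detected on all 3 arrays.

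Cells from outside the brain can carry Hox transcripts, so markers of fibroblasts and meninges are given beside the Hox values. All 6 were detected on each array and all 6 were lower with valproate than with DMSO, against 12430 of all 20848 genes compared. Their median was -0.30, with Col3a1 at -0.97 and Col1a1 at -0.57. Endothelial Flt1 was detected with valproate only, at 27.3 against 3.93 with DMSO (bound of 2.37). Pecam1, also endothelial, was detected with valproate at 6.96 and not with DMSO at 5.91. That undetected signal lay above the floor of 5.29, so the log2 difference of 0.24 is a plain one. Cdh5 was at -0.45 and Cldn5 was undetected, so 2 of the 3 compared endothelial markers were above 0. Astrocyte markers had a median of -0.80. Of 5 microglial markers, Csf1r, Tmem119 and Aif1 were detected on all 3 arrays, with a median of -0.08, and Cx3cr1 and P2ry12 were undetected. The part of these cells in the Hox values was not tested, and in a bulk RNA sample more cells with a transcript and more transcript per cell cannot be told apart.

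Promoters of Hox genes are rich in CpG, a feature of Polycomb targets, and were read from RefSeq windows of GRCm38.p6 that hold 250 bases before and 50 after a gene's start. The 24 windows found, for 22 Hox genes, held a median of 14.5 CpG (4 to 45), against 7 over all 32851 windows, of which 34.6% had at least 14.5. Of the genes detected on any array, 3 had a window, Hoxa7 with 9 CpG, Hoxc4 with 9 and Hoxa9 with 4. These lay below the Hox median. Undetected genes spanned the whole range, from Hoxd4 with 4 CpG and Hoxa2 with 9 to Hoxa13 with 45.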

How the data were processed

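Per the file headers, the deposited intensity of each spot was read from 1-colour (Cy3) Agilent arrays with Feature Extraction 10.7.1.1, background-subtracted and detrended within an array, with probes placed on mm9. The same deposited files give a p-value per spot against background and the marks for well above background and for outliers. The authors also deposited a table of normalized intensity values, whose software is not given in the sources used here. Its 3 presence-call columns were not used.

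Spots marked as outliers were left out, after which 55680 probes had a value on every array, spots of a probe were averaged as log2, and each array was divided by its 75th percentile over non-control spots. A difference was measured where both arrays detected the probe. Where 1 did, the other was set to its floor or its own signal, whichever was higher, and the value is a bound, at least 0. Where its own signal was the higher, the value equals the plain difference of the signals. In the gene lists a gene was represented by its brightest probe. Of the Hox genes detected on at least 1 array, those reported here were named with all their probes, and from other lists up to 4 members farthest from 0 and genes in or beside a cluster. Markers and further members named were picked after their values were seen. A few genes and probe sequences that the counts include are not reported here. The members and lists were chosen with earlier results of these data known. No test between treatments was possible with 1 array each, which also limits the precision. Python 3.11.15 and R 4.3.3 with limma 3.58.1 (normexp) were used, and the difference and bound rules were tested on simulated data. Alternatives were the positive and significant mark, all spots of a probe, a common floor, outlier spots kept, quantile normalization, centring on detected probes, spike-in scaling, normexp with an offset of 50, no detection filter, the deposited table, only probes detected on all 3 arrays, 1.5-fold, no bounds and another control array.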

Additional observations from a re-analysis of the deposited data

How the results depend on the processing

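The scale of the counts depends on the detection mark. With the weaker mark for a positive and significant signal, 14, 12 and 15 Hox probes (14, 11 and 13 genes) counted as detected with valproate, DMSO and lamotrigine, and valproate no longer had the highest count, while 71.8%, 69.3% and 72.8% of all probes carried that mark. Asking for all spots, keeping outlier spots or a common floor left 4 or 5, 1 and 1 probes. Hoxb13 stayed at least 2-fold higher with valproate than with DMSO under quantile normalization, centring on detected probes, spike-in scaling and the authors' deposited table. Keeping outlier spots or a threshold of 1.5-fold left its value unchanged, so these settings are no further check. Over the settings that give a bound, normexp included, its log2 bound ranged from 0.24 to 1.53 against DMSO and from 0.38 to 1.52 against lamotrigine. Without the detection filter its plain log2 differences, which are not bounds, were 1.76 and 2.35. Under normexp 0 Hox probes were at least 2-fold higher with valproate in either comparison. The offset of 50 added there is about as large as the unscaled Hoxb13 signal of 57.4. The difference of Hoxa7 between valproate and lamotrigine, the only 1 measured on both arrays, turned from 0.33 to -0.11 under normexp (the cause was not tested), and the median was -0.29 over 44 probes without the detection filter. Without that filter, at least 2-fold higher and lower were 4 and 5 Hox probes for valproate against DMSO, 3 and 3 for lamotrigine against DMSO, and 4 and 4 for valproate against lamotrigine. With bounds left out, 0 Hox probes were at least 2-fold higher with valproate than with lamotrigine. Of 101 recomputed differences of single probes, 81 moved by less than the spot error and 20 by more. The 81 include settings that gave the same values again, such as outlier spots kept. No called direction reversed (0), but only Hoxb13 was called and a bound cannot change sign, so this is no check of direction. No median could be had for valproate or lamotrigine against DMSO, where no Hox probe was detected on both arrays, no value came from detection on all 3 arrays, and with bounds left out none came for the comparisons with DMSO. Another control array was not run for lamotrigine against DMSO. No paired analysis was possible because each treatment had 1 array. All Hox signals lie near background: the software error of the detected spots was 0.18 to 0.31 on the log2 scale.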
